A study of Mus musculus with 39 samples.

Results

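Testes of mice taken at 7.5 days post partum (dpp) and kept for 7 days in organ culture were set beside testes that had reached the same nominal age, 14.5 dpp, in the animal. The comparison used 6 of the 39 samples of the series, chosen by their source label: 3 cultured for 7 days from 7.5 dpp and 3 taken in vivo at 14.5 dpp. Per the labels all were mouse testis RNA, hybridized to 1-colour Illumina bead arrays. The labels name no strain, genetic change or added agent, nor whether replicates are different mice. The p-values below therefore rest on the variation between arrays within the groups of the series, which may be technical.

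In the mouse the first wave of spermatogenesis runs in step through the whole testis. Spermatogonia enter meiosis in the second week of life, the first pachytene spermatocytes follow, and round spermatids come later. In organ culture a piece of immature testis lies at the border of medium and gas without blood flow, and its germ cells can pass through the same steps, usually less efficiently than in the animal. The tissue holds tubules of germ and Sertoli cells with a peritubular muscle layer, and an interstitium with Leydig cells, vessels and macrophages.

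Of 13 genes used to check the label of the tissue, 12 were measured and 10 were detected on all 6 arrays, among them the Sertoli cell gene Sox9, the germ cell genes Ddx4 and Dazl, the Leydig cell gene Insl3 and the smooth muscle gene Acta2. Clu was not among the measured genes. The macrophage gene Csf1r was detected on 2 of 3 cultured and 3 of 3 in vivo arrays, and Adgre1 on none of the cultured and 2 of the in vivo arrays.

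Before any scaling the cultured arrays were dimmer. Their mean signals were 368, 437 and 384, against 554, 468 and 471 in vivo, so the 2 groups did not overlap. The share of probes detected above the negative controls was closer, 38.6%, 39.7% and 38.0% in culture and 39.4%, 39.4% and 40.7% in vivo. After background correction and quantile normalization the correlation between arrays ran from 0.982 to 0.987 within the culture group and from 0.986 to 0.991 within the in vivo group, and from 0.932 to 0.956 between them. Levels below are normalized log2 signals, given for replicates 1, 2 and 3 of the culture group and then of the in vivo group. Differences are log2 differences, culture minus in vivo, ± SE, with n = 3 arrays per group and the limma p adjusted by the Benjamini-Hochberg method over all 12518 genes. The SE rests on all 13 groups of the series. The number of arrays limits the precision.

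The threshold for a call was an adjusted p under 0.05 together with a 2-fold difference or more. Of 12518 genes, 1406 (11.2%) were called, 691 (5.52%) higher and 715 (5.71%) lower in culture. The counts of list members below are to be read beside these shares. The median difference of all genes was 0.01. Quantile normalization gives every array the same distribution over all probes, which largely fixes this median near 0. The arrays of the 2 groups did not overlap for 53.6% of all genes, so a gap between the groups is given below as a description of the values and sets no gene apart. Among the higher genes 135 were undetected on all 3 in vivo arrays, and among the lower ones 204 were undetected on all 3 cultured arrays. For such genes a minimum fold is given, with each undetected value raised to the lowest normalized signal of a detected probe on its array.

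**Figure D1:**
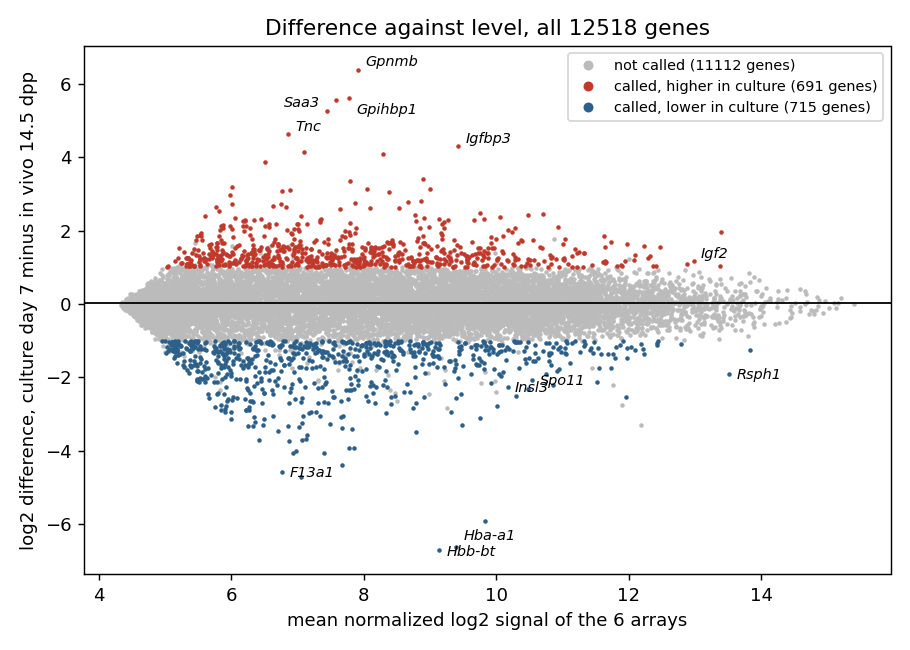
Each point is 1 of 12518 genes, placed by its mean normalized log2 signal over the 6 arrays (horizontal) and by its log2 difference, culture day 7 minus in vivo 14.5 dpp (vertical). The black line marks the median difference of 0.01, red points are the 691 genes called higher in culture and blue points the 715 called lower.

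The split between higher and lower genes depended on how the arrays were scaled. Centring each array on the median of probes detected on every array gave 632 genes higher and 604 lower. Centring on the median of all probes gave 245 higher and 1503 lower and moved the median of all genes to -0.27, and with it the share of called genes that were higher went from 49.1% to 14%. The authors' own log2 values gave 178 higher and 235 lower. Differences reported below are those after quantile normalization, and for some lists the number of members that passed with centring on all probes is given. That centring changed other counts too. Called higher were 1 cholesterol, 1 undifferentiated spermatogonia, 1 imprinted growth and 6 cytokine or chemokine genes, in place of 3, 3, 2 and 8. Called lower were 6 macrophage, 2 mitotic cell cycle and 4 oxidative phosphorylation genes, in place of 4, 0 and 2.

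**Figure D2:**
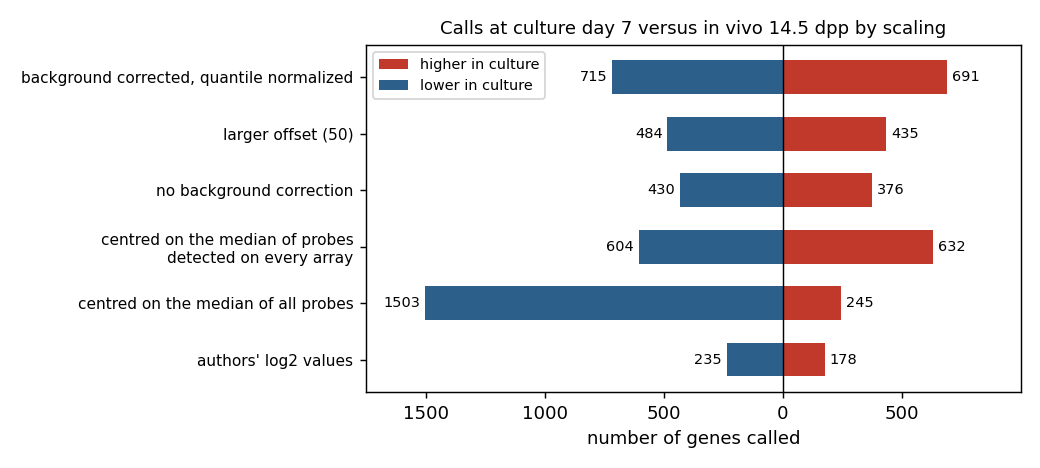
Bars show the number of genes called higher (red, to the right) and lower (blue, to the left) at culture day 7 against in vivo 14.5 dpp under 6 ways of scaling the arrays. Quantile normalization gave 691 higher and 715 lower, centring on the median of all probes 245 and 1503, and the authors' values 178 and 235.

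The 15 genes with the largest difference in each direction are described first. Gpnmb, a glycoprotein abundant in lysosome-rich phagocytes, read 11.28, 11.69 and 10.37 in culture and 4.74, 4.70 and 4.76 in vivo. It was undetected on every in vivo array and at least 44.7-fold higher (6.38 ± 0.56, limma adjusted p = 1.72e-09). Gpihbp1, which anchors lipoprotein lipase on capillary endothelium, stood at 10.52, 10.81 and 10.44 against 5.44, 4.74 and 4.76, at least 31-fold higher (5.61 ± 0.40, limma adjusted p = 4.12e-11). Car12, a membrane-bound carbonic anhydrase, was at 10.54, 10.25 and 10.33 against 4.60, 4.94 and 4.88, at least 26.7-fold higher. All 3 were detected on every cultured array and on no in vivo array. Igfbp3, a carrier protein of insulin-like growth factors, was present in both groups and rose by 4.30 ± 0.31, from 7.01, 7.43 and 7.39 in vivo to 11.58, 11.72 and 11.43 (limma adjusted p = 4.12e-11).

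The largest falls were those of 3 globin genes. The beta-globin gene Hbb-bt read 5.40, 7.40 and 4.54 in culture and 12.49, 12.04 and 12.96 in vivo (-6.72 ± 0.79, limma adjusted p = 4.87e-07). Hba-a1 differed by -6.64 ± 0.73 and Hbb-bs by -5.93 ± 0.70 in the same direction. These globin genes have near-identical copies, and which copy each probe measured is uncertain. Pabpc2, a poly(A)-binding protein of meiotic cells, was undetected in culture (4.43, 4.58 and 5.06 against 8.86, 9.26 and 10.10) and at least 12.7-fold lower. F13a1, the A subunit of coagulation factor XIII and a gene of resident macrophages, was at least 10-fold lower (4.45, 4.62 and 4.38 against 8.54, 9.48 and 9.17). The sperm surface genes Adam5 and Adam32 fell by 4.39 ± 1.18 and 3.93 ± 1.09, and Cbr2, a carbonyl reductase, and Cd209f, a C-type lectin, were at least 9.37-fold and 5.76-fold lower. Of the 15 lower genes, 9 (Pabpc2, Adam5, Adam32, Gm5878, Pebp4, Clec2m, Plaat5, Tsnaxip1 and Atp8b3) had mean levels between 4.66 and 6.16 at 7.5 dpp in vivo and between 11.84 and 14.18 at 21.5 dpp.

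Among these 30 genes, 3 lost their call when 1 array was left out. Pdrg1, named for its regulation by p53 and DNA damage, read 9.84, 10.94 and 10.22 in culture but 4.45, 4.85 and 9.45 in vivo, and its difference of 4.09 ± 1.51 (limma adjusted p = 0.0408) no longer passed when any array other than in vivo replicate 3 was left out (limma adjusted p from 0.0689 to 0.174). Without in vivo replicate 3 the calls of Pebp4 (-3.59, limma adjusted p = 0.0563) and Plaat5, a phospholipid acyltransferase (-3.33, limma adjusted p = 0.0503), were lost.

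Probes of 1 gene often differed in size. Of 76 called and named genes with more than 1 kept probe, 48 had a probe that was short of 2-fold or went the other way. Such second values were -0.01 for Plaat5, -0.37 for Atp8b3, -0.98 for Pebp4, -0.93 for Hbb-bt, 0.66 for Sox7, -0.16 for Aurkc, -0.07 for Rfx2, 0.33 for Cxcl14 and 0.11 for Phlda3. The second probe of Gpnmb stood at 2.09.

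**Figure D3:**
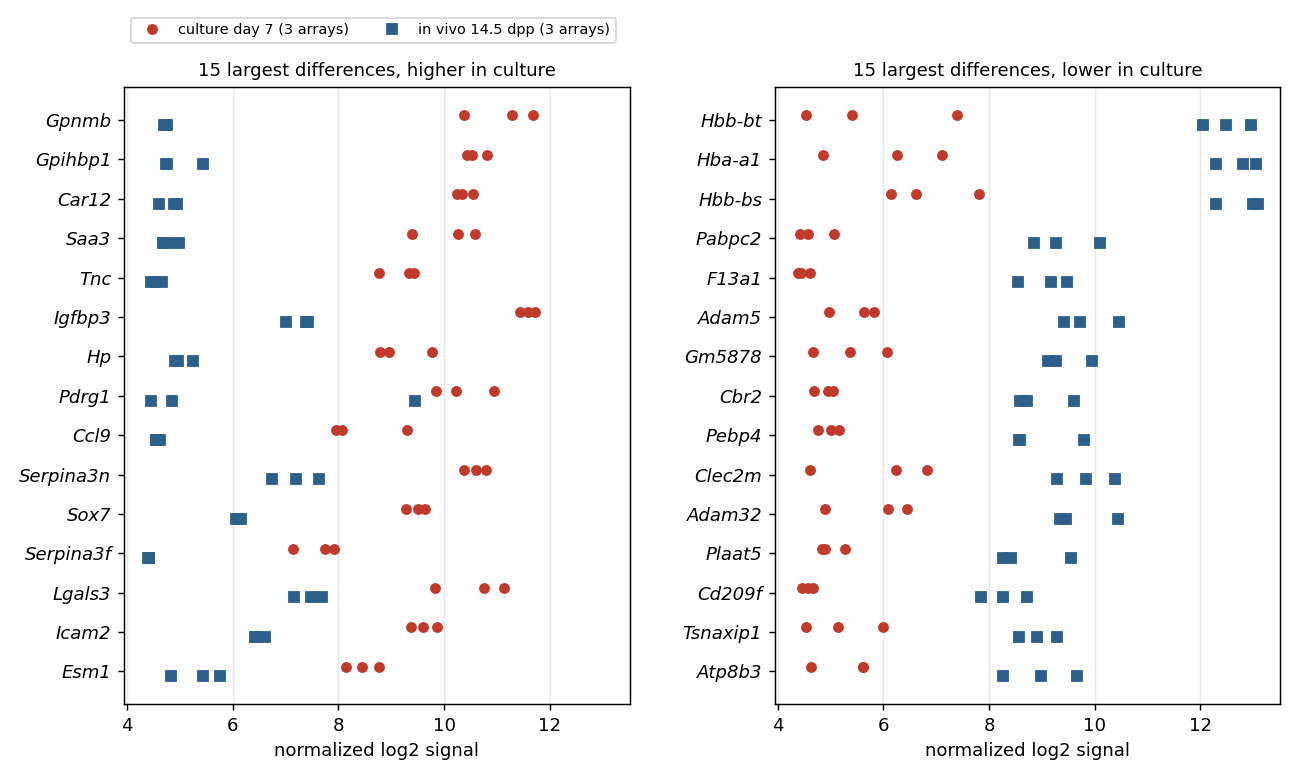
Points are single arrays: red circles the 3 arrays of culture day 7 and blue squares the 3 of in vivo 14.5 dpp, on the normalized log2 signal scale, for the 15 genes with the largest differences in each direction. The genes were chosen among those whose groups do not overlap, and for Pdrg1 the in vivo arrays run from 4.45 to 9.45.

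Of 39 genes of early meiotic prophase 27 were measured. In culture 10 of them fell against 14.5 dpp in vivo, none rose and 17 were not called. The median difference of the measured members was -0.80, against 0.01 for all genes. Spo11, the enzyme that makes the breaks that start meiotic recombination, read 8.79, 9.97 and 9.76 in culture and 11.72, 11.46 and 11.57 in vivo, a fall of 2.07 ± 0.47 on the log2 scale (limma adjusted p = 0.0016). The 3 cultured arrays lay below all in vivo arrays. Sycp2, a protein of the synaptonemal complex that joins paired chromosomes, stood at 8.65, 8.98 and 9.14 against 10.89, 10.59 and 10.65 (-1.79 ± 0.39, limma adjusted p = 0.00115). Msh4, which stabilizes crossover intermediates, fell by 1.69 ± 0.37 and the meiotic cohesin Stag3 by 1.21 ± 0.32.

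The other calls of this group came from genes that tie telomeres to the nuclear envelope and from recombination factors. The telomere adaptors Terb2 and Terb1 fell by 1.46 ± 0.31 and 1.24 ± 0.31, and Psmc3ip, a partner of the recombinases, fell by 1.20 ± 0.32. Without culture replicate 1, the calls of Meiob (-1.32, limma adjusted p = 0.0819), Mnd1 (-0.80, limma adjusted p = 0.0901) and Hormad2 (-0.85, limma adjusted p = 0.114) were lost, and that of Hormad2 also without in vivo replicates 1 and 3 (limma adjusted p = 0.064 and 0.0532). Synaptonemal complex genes that did not reach the 2-fold threshold lay on the same side, Sycp1 at -0.99 (limma adjusted p = 0.0144) and Syce1 at -0.74 (limma adjusted p = 0.0199). Rec8, the meiotic kleisin, stood at 0.74 and Trip13 at 0.21, neither called.

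The piRNA pathway silences transposons in male germ cells. Of 21 list genes 19 were measured, of which 11 fell, 1 rose and 7 were not called, and the median was -1.30. Ddx4, the RNA helicase that marks germ cells, read 7.13, 6.89 and 7.40 in culture and 9.57, 9.65 and 9.83 in vivo, a fall of 2.55 ± 0.50 (limma adjusted p = 0.000404). Piwil2, a Piwi protein of spermatogonia and spermatocytes, stood at 11.22, 11.75 and 11.66 against 12.92, 12.83 and 13.03 (-1.38 ± 0.30, limma adjusted p = 0.00114). Gpat2, Tdrd1, Tdrd9 and Rnf17, proteins of the granules and mitochondria where piRNAs are made, fell by 1.34 ± 0.22, 1.70 ± 0.37, 1.33 ± 0.31 and 1.42 ± 0.35. The nuclease-like gene Exd1 was undetected in culture and at least 1.54-fold lower.

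The tudor-domain gene Tdrd6 had the largest difference of the list (6.19, 7.39 and 7.56 against 10.08, 10.35 and 11.17, -3.49 ± 1.12, limma adjusted p = 0.0194). Its call was lost without in vivo replicate 3 (limma adjusted p = 0.0767) and without culture replicate 1 (limma adjusted p = 0.0799). Tdrd5 lost its call without in vivo replicate 2 or 3 or culture replicate 1 (limma adjusted p = 0.0585, 0.0887 and 0.114) and Pld6 without culture replicate 2 (limma adjusted p = 0.062). Gtsf1 lost its call when any array but in vivo replicate 1 was left out (limma adjusted p from 0.0517 to 0.136). Piwil1, the Piwi protein of pachytene cells, read 9.90, 10.68 and 11.41 against 12.52, 12.91 and 13.16 and was not called (-2.20 ± 1.12, limma adjusted p = 0.14). Piwil4, a nuclear Piwi protein, went the other way and rose by 1.07 ± 0.30 (limma adjusted p = 0.00787), which fell short of 2-fold with either centring of the arrays (0.62 and 0.98).

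Genes of pachytene and late spermatocytes were lower in 12 cases and higher in none, of 28 measured among 36, with a median of -1.20. Clgn, a chaperone of the endoplasmic reticulum needed for sperm surface proteins, read 8.98, 8.93 and 9.24 in culture and 11.47, 11.58 and 11.63 in vivo (-2.51 ± 0.58, limma adjusted p = 0.00174). Crem, which drives the later genes of spermatids, stood at 6.17, 6.57 and 7.08 against 8.67, 9.03 and 9.15 (-2.35 ± 0.51, limma adjusted p = 0.00113). Meikin, a kinetochore regulator of the first meiotic division, was at 4.61, 6.59 and 6.79 against 7.95, 8.05 and 8.28 and fell by 2.10 ± 0.52, and culture replicate 1 was the lowest of the 3. The kinase gene Aurkc fell by 1.45 ± 0.32 and the helicase gene Ddx25 by 1.36 ± 0.30.

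Further calls of this stage were less stable. Without in vivo replicate 3 the count of lower genes was 7 in place of 12, and those of Ppp3r2 (-2.50, limma adjusted p = 0.057), Pgk2, the glycolytic enzyme of late germ cells (-1.74, limma adjusted p = 0.0822), and the chaperone Hspa2 (-1.19, limma adjusted p = 0.0685) were among those lost. Hspa2 also lost its call without culture replicate 1 (limma adjusted p = 0.0946) and Nxf3 without culture replicate 2 (-0.94). Ybx2, an mRNA-storing protein, lost its call when any array but culture replicate 3 was left out (limma adjusted p from 0.054 to 0.131), and Brdt, the testis bromodomain protein, did so for every array but in vivo replicate 2 and culture replicate 3 (limma adjusted p from 0.0526 to 0.0998). Ldhc, the lactate dehydrogenase of spermatocytes, read 9.56, 10.69 and 11.36 against 13.29, 14.00 and 14.25 and was not called (-3.31 ± 1.34, limma adjusted p = 0.0619).

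Genes of the axoneme, the moving core of cilia and of the sperm tail, fell in 12 of 27 measured cases, of 38 listed, and rose in none, with a median of -1.25. Dnaaf11, an assembly factor of dynein arms, read 4.59, 4.82 and 6.47 in culture and 7.88, 7.15 and 8.11 in vivo (-2.42 ± 0.57, limma adjusted p = 0.00222). Enkur stood at 5.98, 5.63 and 6.31 against 7.56, 7.36 and 7.97, and Dnah2, a dynein heavy chain, at 6.52, 6.89 and 7.01 against 7.99, 8.35 and 8.41. Both were below the in vivo range on every cultured array and fell by 1.66 ± 0.41 and 1.44 ± 0.42. Stk33 was undetected in culture and at least 1.26-fold lower. Leaving out single arrays lowered this count, to 4 without culture replicate 1 and 6 without in vivo replicate 3. With the spread taken from the 6 arrays alone the count was 15. Rsph1, a radial spoke protein (11.83, 12.78 and 13.10 against 14.35, 14.52 and 14.54), had a difference of -1.90 ± 0.66 (limma adjusted p = 0.0303) that lost its call when any array but culture replicate 3 was left out (limma adjusted p from 0.0559 to 0.136). Rfx2, the transcription factor of ciliary genes, fell by 1.57 ± 0.45 and lost its call without culture replicate 1 (limma adjusted p = 0.0706).

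Genes of round spermatids, cells not yet formed in number at this age, were mostly near the detection limit. Of 28 list genes 26 were measured, of which 17 were undetected on all cultured and 13 on all in vivo arrays. There were 8 calls, all lower, and the median was -0.33, which became 0.03 with centring on the median of probes detected on every array. Tcp11 read 4.57, 5.34 and 5.91 in culture and 7.44, 7.53 and 8.15 in vivo (-2.43 ± 0.64, limma adjusted p = 0.00493). Zpbp2, a zona pellucida binding protein of the acrosome, was undetected in culture (4.52, 5.33 and 4.67 against 6.35, 6.98 and 7.32) and at least 2.2-fold lower. The acrosomal protease gene Acr stood at 5.66, 6.40 and 6.92 against 8.29, 8.87 and 8.96, and its call was lost without in vivo replicate 2 or 3 or culture replicate 1 (limma adjusted p = 0.0521, 0.0665 and 0.0854). The count of 8 became 5, 4 and 5 without those same arrays. For Acrbp, which binds proacrosin, the probe used fell by 1.80 while a second probe stood at 0.11. Of the elongating spermatid genes 15 of 21 were measured, 13 of them undetected in both groups, and none was called (median 0.07).

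**Figure D4:**
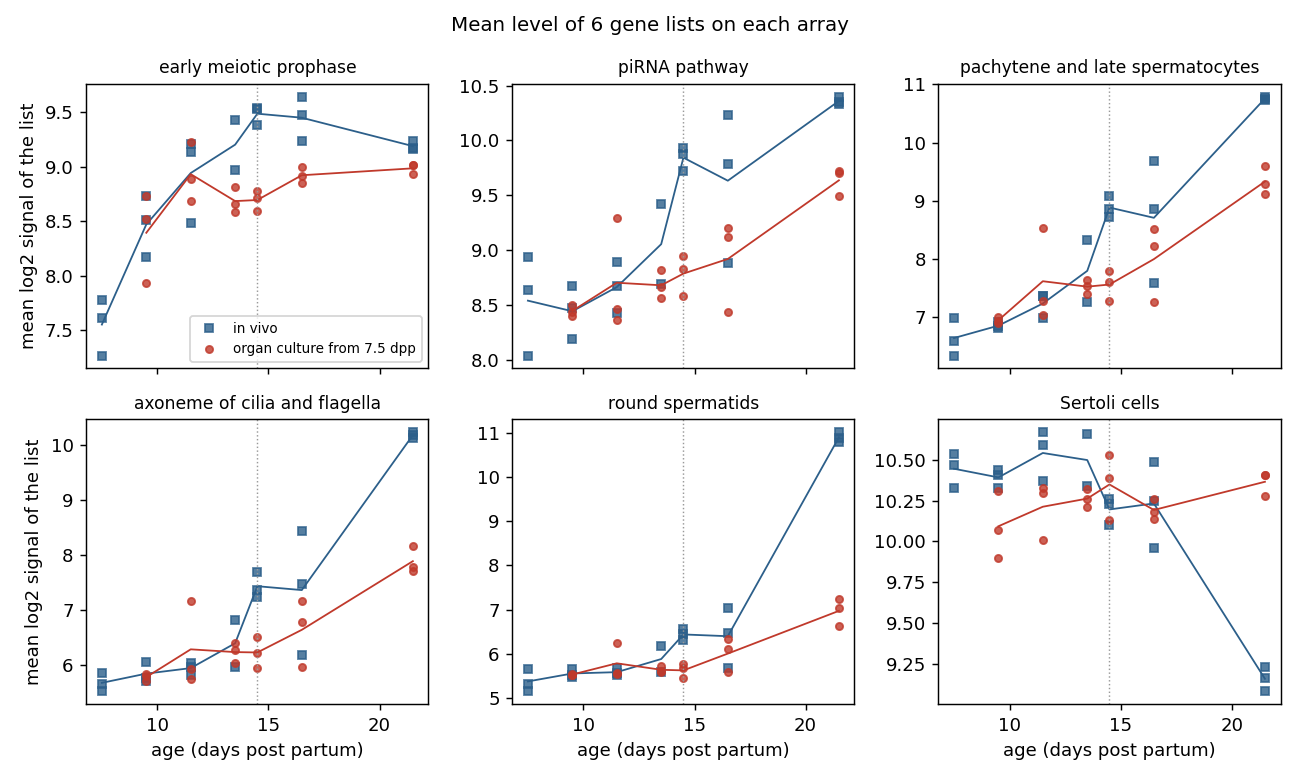
Each point is the mean normalized log2 signal of the measured members of a gene list on 1 array, against age in days post partum, for testes in vivo (blue squares) and in organ culture from 7.5 dpp (red circles), with lines through the group means. At 14.5 dpp (dotted line) the 3 cultured arrays lie below the 3 in vivo arrays for the early meiotic, piRNA, pachytene, axoneme and round spermatid lists, and not for Sertoli cell genes.

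The level of these lists in culture was set beside every in vivo age. The mean level of the early meiotic list was 8.70 at culture day 7, between the 8.47 of 9.5 dpp and the 8.94 of 11.5 dpp in vivo, and below the 9.48 of 14.5 dpp. The piRNA list, at 8.79, was nearest to 11.5 dpp (8.66), and the pachytene list, at 7.56, lay between 11.5 dpp (7.23) and 13.5 dpp (7.79). The axoneme list, at 6.23, lay between 5.95 and 6.40 at the same 2 ages. All 4 lists had been lower still at 7.5 dpp in vivo, at 7.55, 8.54, 6.64 and 5.69. At 16.5 dpp in vivo their means were 9.45, 9.63, 8.71 and 7.36, each below the mean of 14.5 dpp (9.48, 9.84, 8.88 and 7.43). The 16.5 dpp arrays were spread, with replicate 2 the lowest in all 4 lists. Replicates 1, 2 and 3 read 9.47, 9.23 and 9.64 for the early meiotic list and 9.79, 8.88 and 10.23 for the piRNA list. They read 8.86, 7.58 and 9.68 for the pachytene list and 7.47, 6.19 and 8.43 for the axoneme list. The 2 arrays of 13.5 dpp read 7.26 and 8.33 for the pachytene list, and the cultured arrays 7.28 to 7.79. Over all genes, which are not independent replicates, the mean profile of the cultured testes correlated with that in vivo at r = 0.971 for 11.5 dpp, 0.969 for 13.5 dpp (2 arrays) and 0.954 for 14.5 dpp. The value was 0.96 for 7.5 dpp, 0.961 for 9.5 dpp, 0.958 for 16.5 dpp and 0.724 for 21.5 dpp. With centring on all probes the counts of lower genes were 16 for the early meiotic, 11 for the piRNA, 19 for the pachytene and 15 for the axoneme list, and with the authors' values they were 7, 6, 9 and 5. In RNA from whole testes fewer cells of a type and less RNA per cell cannot be told apart.

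Spermatogonial genes gave calls in both directions, to be read beside the 11.2% called of all genes. Of the undifferentiated spermatogonia list 21 of 25 genes were measured, 3 rose and 1 fell, and the median of 0.15 became -0.25 with centring on all probes. Id4, a regulator linked to spermatogonial stem cells, was undetected in culture (5.20, 5.60 and 5.77 against 7.27, 7.69 and 7.89) and at least 3.66-fold lower (-2.09 ± 0.42, limma adjusted p = 0.000508). Bcl6b, a target of the growth factor Gdnf in these cells and also expressed in endothelium, read 7.69, 8.40 and 7.78 against 5.44, 6.22 and 6.14 and rose by 2.03 ± 0.30 (limma adjusted p = 1.23e-05). Upp1, a uridine phosphorylase, rose by 1.14 ± 0.33. Nanos3 rose by 1.09 ± 0.35 and lost its call without in vivo replicate 1 or 3 or culture replicate 1 or 3 (limma adjusted p from 0.0554 to 0.0873). Zbtb16 (-0.11), Sall4 (0.15) and Ret (0.63) were not called.

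In differentiating spermatogonia and cells entering meiosis 14 of 17 genes were measured, 1 fell and none rose, with a median of 0.09. With centring on all probes 3 fell and the median was -0.33. The mean level of the list was 9.50 on each cultured array and 9.55 to 9.65 in vivo, and its summed linear signal 23400 to 25600 against 29800 to 31400. The gene that fell was Ly6k, a membrane protein of germ cells (6.86, 8.10 and 8.10 against 9.56, 9.30 and 9.16, -1.65 ± 0.38, limma adjusted p = 0.00182). Kit, the receptor of differentiating spermatogonia, stood at 0.38 and Stra8, induced by retinoic acid before meiosis, at 0.54, neither called.

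Sertoli cell genes were largely at similar levels in the 2 groups. Of 30 list genes 26 were measured, 4 rose and 1 fell, and the median was 0.14, which turned to -0.16 with centring on all probes, where none rose. Sox9 stood at -0.12 (limma adjusted p = 0.791) and Rhox5, a homeobox gene driven by androgen, at -0.15, neither called. Gata4, a transcription factor of gonadal somatic cells, read 6.96, 6.97 and 7.09 in culture and 5.54, 5.93 and 5.58 in vivo (1.32 ± 0.37, limma adjusted p = 0.00877). Without in vivo replicate 3 the count of higher genes was 1, and without culture replicate 1 it was 2. Hsd17b1 and the protease Ctsl, at 1.64 ± 0.51 and 1.56 ± 0.51, lost their calls without in vivo replicate 3 (limma adjusted p = 0.0788 and 0.181), the first also without culture replicate 1 (limma adjusted p = 0.0918) and the second also without culture replicate 2 (limma adjusted p = 0.0917). Amh, the hormone of immature Sertoli cells, read 9.54, 8.14 and 8.77 against 7.52, 7.79 and 7.13 (1.34 ± 0.49, limma adjusted p = 0.0387), a call lost without in vivo replicate 1 or 3 or culture replicate 1 or 3 (limma adjusted p from 0.0725 to 0.196).

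Androgen-responsive Sertoli genes were lower in 3 of 8 measured cases, of 9 listed, and higher in none, with a median of -0.59. Corin, a serine protease, read 5.98, 5.01 and 6.57 in culture and 9.11, 9.16 and 9.16 in vivo, a fall of 3.29 ± 0.49 (limma adjusted p = 1.44e-05). The in vivo arrays were within 0.05 of each other and all above the cultured ones. Tsx, an X-linked gene of Sertoli cells, fell by 1.20 ± 0.28, and Cldn3, a tight junction claudin of newly formed barrier, was undetected in culture (4.53, 4.66 and 4.48 against 6.20, 5.67 and 5.45) and at least 1.02-fold lower. Of 15 junction genes of the blood-testis barrier measured among 17, Cldn3 was the gene that fell and Cldn5, a claudin mainly of vessels, the gene that rose. Gpd1 stood at -0.91 and Eppin at -0.04, neither called.

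Leydig cells, the source of testosterone, were represented by 9 measured genes of 18. Insl3, the hormone of testis descent, read 9.07, 8.70 and 9.37 in culture and 10.96, 11.53 and 11.43 in vivo, a fall of 2.26 ± 0.34 (limma adjusted p = 1.53e-05). It was the only call among the 9 measured genes, a share near the 11.2% of all genes, and the list median was -0.16. Cyp17a1, an enzyme of androgen synthesis, read 7.68, 6.20 and 7.30 against 7.39, 11.41 and 7.65, with in vivo replicate 2 apart from the others, and its difference of -1.76 was not called (limma adjusted p = 0.13). Star, undetected in both groups, and Cyp11a1 (-0.02) were not called either.

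Of 25 genes of cholesterol synthesis 18 were measured, 3 rose and none fell, and 17 of the 18 differences were above 0, with a median of 0.31 that became -0.03 with centring on all probes. Fdps, which makes farnesyl diphosphate, read 12.88, 12.54 and 12.90 in culture and 11.50, 11.43 and 11.35 in vivo (1.34 ± 0.14, limma adjusted p = 6.09e-08). Srebf2, the transcription factor of the pathway, rose by 1.30 ± 0.21 and Dhcr7, its last enzyme, by 1.20 ± 0.30. The second probes of Fdps and Srebf2 stood at 0.83 and 0.22, short of 2-fold. The count of 3 was 6 without culture replicate 2 and 5 without in vivo replicate 2.

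Of 12 niche factors measured among 14, 4 rose and none fell (median 0.63), and of 8 genes of inhibin, activin and follistatin among 11, 3 rose and none fell (median 0.51). With centring on all probes 2 niche factors and 1 activin gene rose, with medians of 0.26 and 0.14. The mean level of the niche list was 8.63 at 7.5 dpp in vivo, 8.23 at culture day 7 and 7.51 at 14.5 dpp in vivo. For the inhibin, activin and follistatin list the same 3 values were 9.48, 9.20 and 8.62. Igf1, insulin-like growth factor 1, read 10.08, 9.77 and 9.93 against 7.51, 8.26 and 7.22, a rise of 2.26 ± 0.35 (limma adjusted p = 2.74e-05). Nrg1, a ligand of the ErbB receptors, was undetected in vivo and at least 1.51-fold higher, and Wnt6 rose by 1.28 ± 0.36. Inhba, the activin A subunit, read 8.98, 8.67 and 9.03 against 7.26, 7.59 and 7.24 (1.53 ± 0.28, limma adjusted p = 0.0002), and Fstl1 and the co-receptor Tgfbr3 each rose by 1.35. The imprinted genes Igf2 and Mest rose by 1.16 ± 0.26 and 2.12 ± 0.27, the calls among 11 imprinted growth genes measured of 17. The mean level of that list was 10.04 at 7.5 dpp in vivo, 9.02 at culture day 7 and 8.51 at 14.5 dpp in vivo. Gdnf (-0.19) and Kitl (0.62), the Sertoli factors for stem cells and for Kit-bearing cells, were not called.

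In retinoic acid supply, which sets meiotic entry, 15 of 19 genes were measured and 1 was called. Lrat, which stores retinol as ester, was undetected in culture (4.39, 4.49 and 4.50 against 6.65, 6.52 and 6.32) and at least 1.69-fold lower (limma adjusted p = 0.000791). Its level in vivo at 7.5 dpp had been 4.69. The receptor gene Rara stood at 0.91 (limma adjusted p = 0.0109), short of 2-fold.

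Of 22 endothelial genes 21 were measured, 12 rose in culture, 1 fell and 8 were not called, with a median of 1.27. With centring on all probes 9 rose, and with the authors' values 7. The mean level of the list was 7.84 at 7.5 dpp in vivo, 8.49 at culture day 7 and 7.27 at 14.5 dpp in vivo. Cdh5, the cadherin of vessel walls, read 9.90, 10.27 and 9.38 in culture and 7.37, 7.17 and 7.15 in vivo, a rise of 2.62 ± 0.29 (limma adjusted p = 2.12e-07). Pecam1, the adhesion molecule that marks endothelium, stood at 8.44, 8.88 and 8.25 against 6.58, 6.60 and 7.13 (1.75 ± 0.31, limma adjusted p = 0.000159). The surface receptor Cd93 rose by 2.28 ± 0.26, with second probes of Pecam1 and Cd93 at 0.64 and 0.99, and Tie1, a receptor tyrosine kinase of vessels, was undetected in vivo and at least 3.3-fold higher.

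The endothelial change was not uniform over the list. Emcn, Esam and Cldn5, of the vessel surface and its junctions, rose by 1.68 ± 0.32, 1.82 ± 0.26 and 1.92 ± 0.32, and the transcription factor Sox18 by 1.41 ± 0.32, while for Sox17 a second probe stood at -0.05 beside 1.44 for the one used. Robo4 rose by 1.20 ± 0.26 and lost its call without culture replicate 2 (0.93). Ptprb, a phosphatase of vessels, fell by 1.38 ± 0.33 (limma adjusted p = 0.00277), and the receptors of vascular growth factors and angiopoietin, Kdr (-0.54), Flt1 (-0.75) and Tek (-0.51), were not called. Outside the list, Sox7, Icam2 and Esm1, genes known from endothelium, rose by 3.36 ± 0.37, 3.12 ± 0.34 and 3.11 ± 0.36.

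Of the collagen and matrix list 16 of 21 genes were measured, 9 rose and 1 fell, with a median of 1.11, and 3 rose with centring on all probes. The median difference of the list was -0.06, -0.29 and -0.31 at 9.5, 11.5 and 13.5 dpp. It was 0.68 at 16.5 dpp and 1.52 at 21.5 dpp. The mean level of the list was 10.09 at 7.5 dpp in vivo, 9.67 at culture day 7 and 8.85 at 14.5 dpp in vivo. Thbs2, a matricellular thrombospondin, read 10.02, 9.69 and 9.27 in culture and 7.76, 8.11 and 7.96 in vivo (1.72 ± 0.23, limma adjusted p = 2.95e-06). The fibrillar collagen gene Col1a1 stood at 10.78, 11.17 and 10.88 against 9.74, 9.72 and 9.28 (1.36 ± 0.36, limma adjusted p = 0.00577), and the cross-linking enzymes Lox and Loxl1 rose by 1.53 ± 0.31 and 1.21 ± 0.25. Col14a1, a fibril-associated collagen, was undetected in culture (4.96, 5.23 and 4.97 against 6.98, 6.70 and 7.16) and at least 2.3-fold lower. The 2 probes of Col3a1 disagreed, at 1.02 and -1.23. Without in vivo replicate 1 the calls of Col1a2 (1.14, limma adjusted p = 0.0658) and Col3a1 (0.77) were lost, the latter also without culture replicate 1 (0.88), and that of the proteoglycan Bgn was lost without in vivo replicate 3 (0.97).

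Genes of wound repair and of stromal progenitors followed. Tnc, tenascin C, a matrix protein of healing tissue, was undetected in vivo and at least 11.7-fold higher (9.33, 9.43 and 8.76 against 4.53, 4.46 and 4.67). The protease inhibitor Timp1 read 10.56, 10.94 and 10.93 against 8.40, 8.80 and 8.35 (2.29 ± 0.45, limma adjusted p = 0.000483), and the growth factor Tgfb1 and the membrane protease Mmp14 rose by 1.65 ± 0.27 and 1.64 ± 0.20. In all 5 of 11 measured genes of this list rose, of 19 listed, and 1 fell: Ccn2, a growth factor of fibrosis (10.67, 11.57 and 10.93 against 12.63, 12.28 and 12.73, -1.49 ± 0.24). The mean level of the list was 8.22 at 7.5 dpp in vivo, 8.73 at culture day 7 and 7.70 at 14.5 dpp in vivo. Plaur, at 1.11, lost its call without culture replicate 2 (0.97) or 3 (0.96). Among 11 measured genes of interstitial progenitors, of 15 listed, 3 rose and none fell. Pdgfrb, a receptor of perivascular cells, was undetected in vivo and at least 5.53-fold higher (8.21, 8.37 and 7.72 against 5.23, 5.44 and 5.51), and Lum and Nes rose by 2.18 ± 0.50 and 1.78 ± 0.40. The count of 3 was 5 without in vivo replicate 2. Interstitial progenitor genes had a mean level of 9.62 at 7.5 dpp in vivo, 9.50 at culture day 7 and 8.62 at 14.5 dpp in vivo. Of 11 peritubular smooth muscle genes measured among 13 only Smtn rose (1.44 ± 0.22), and Acta2 stood at -0.25.

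**Figure D5:**
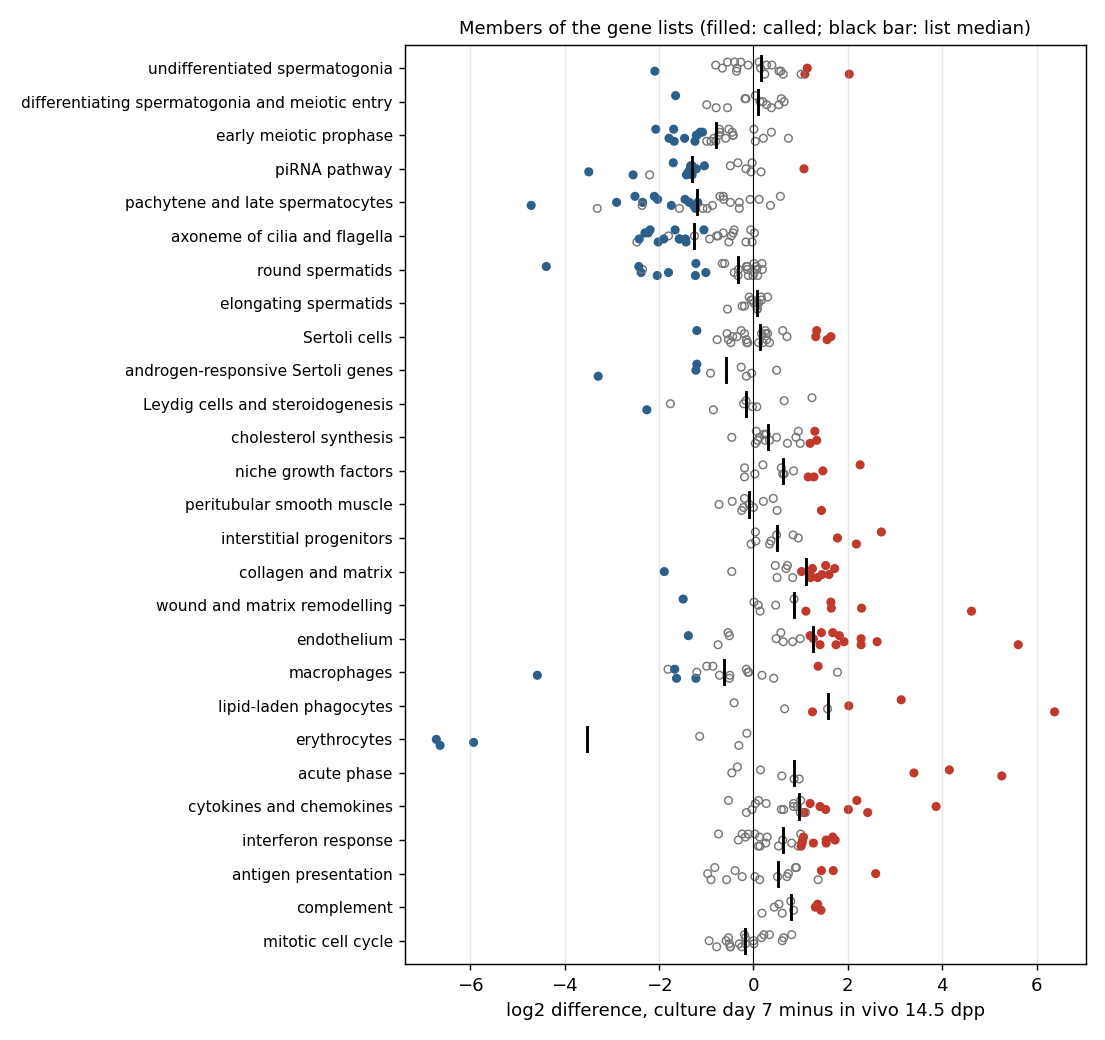
Each circle is 1 measured gene, placed by its log2 difference, culture day 7 minus in vivo 14.5 dpp, in 27 of the 43 gene lists. Filled red circles were called higher, filled blue circles called lower and open circles not called; the black bars are list medians, which run from -3.53 for erythrocyte genes to 1.57 for genes of lipid-laden phagocytes.

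Macrophage genes did not move together. Of the macrophage list 18 of 23 genes were measured, 4 fell and 1 rose, with a median of -0.62. Beside F13a1, the folate receptor Folr2 was undetected in culture (5.32, 5.47 and 5.14 against 6.92, 7.20 and 6.83) and at least 2.36-fold lower, and the mannose receptor Mrc1 read 8.36, 8.08 and 7.75 against 9.64, 9.84 and 9.59 (-1.63 ± 0.33, limma adjusted p = 0.000628). Adgre1 and Cd14, at -1.22 ± 0.45 and 1.37 ± 0.47, each lost their call in 4 of the 6 fits that left out 1 array, Adgre1 without in vivo replicate 2 or 3 or culture replicate 2 or 3 and Cd14 without in vivo replicate 1 or 3 or culture replicate 1 or 2 (limma adjusted p from 0.0808 to 0.161). Lyz2, lysozyme of phagocytes, read 12.44, 12.16 and 10.67 against 9.47, 10.59 and 9.87 and was not called (1.78 ± 0.89).

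Genes known from lipid-laden phagocytes were higher in 4 of 7 measured cases, of 12 listed, with a median of 1.57. Beside Gpnmb, the galectin Lgals3 stood at 10.76, 11.13 and 9.83 against 7.16, 7.49 and 7.69 (3.13 ± 0.57, limma adjusted p = 0.000199), and Lpl, lipoprotein lipase, at 11.56, 11.68 and 10.32 against 9.03, 9.46 and 9.03 (2.02 ± 0.52, limma adjusted p = 0.00464). Culture replicate 3 was the lowest cultured array for all 3 genes and still above every in vivo array. Mmp12, a macrophage elastase, lost its call when any array but culture replicate 3 was left out (limma adjusted p from 0.0506 to 0.0951). The summed linear signal of the measured macrophage list ran from 3290 to 9350 in culture and from 4860 to 7650 in vivo, and that of the lipid-laden list from 3800 to 9280 and from 881 to 1140.

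Lists of other cell types were read for cells carried along with the tissue. The summed signal of 6 measured erythrocyte genes, of 13, was 214 to 604 in culture and 14400 to 25200 in vivo. Beside the globins, Alas2, the first enzyme of haem synthesis in red cells, was undetected in culture and not called. Of neutrophil genes 2 of 11 were measured, with sums from 60.3 to 1160 in culture and from 45.5 to 50.1 in vivo. S100a8 read 6.31, 9.71 and 5.21 against 4.39, 4.48 and 4.49, and its call was lost without culture replicate 2 (limma adjusted p = 0.225), the array where Mpo stood at 8.32 against 4.42 and 4.54 on the others. The mast cell gene Hdc, the histamine-making enzyme, fell by 1.31 ± 0.30, a difference of -0.89 without culture replicate 2. None of 4 measured lymphocyte genes (of 15), 4 epididymal (of 12), 4 adipocyte (of 8) and 2 mesothelial genes (of 9) was called, with summed signals of 159 to 174, 249 to 366, 109 to 119 and 408 to 453 in culture and 142 to 186, 166 to 275, 125 to 134 and 339 to 471 in vivo. The part of blood cells, phagocytes or neutrophils in the other differences was not tested.

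Acute phase genes were higher in 3 of 9 measured cases and not called in 6. Saa3, a serum amyloid A made in inflamed tissue, read 9.39, 10.26 and 10.59 in culture and 4.69, 4.78 and 4.98 in vivo, at least 21.8-fold higher (5.26 ± 0.67, limma adjusted p = 1.44e-06). Haptoglobin, Hp, was likewise undetected in vivo and at least 11.7-fold higher (8.79, 8.96 and 9.78 against 5.25, 4.90 and 4.96). Serpina3n, a protease inhibitor of the acute phase, read 10.79, 10.60 and 10.38 against 7.19, 6.74 and 7.64 (3.40 ± 0.50, limma adjusted p = 1.22e-05). These were the 3 that rose of the list of 14, none fell, and the median was 0.86. Serpina3f was at least 3.93-fold higher, but not called with the authors' values.

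Of 33 cytokines and chemokines 22 were measured, 8 rose and none fell (median 0.96). With the authors' values 2 rose. The chemokine Ccl9 read 8.06, 9.30 and 7.95 against 4.62, 4.54 and 4.54, undetected in vivo and at least 6.98-fold higher, and Cxcl16 and Cxcl14 rose by 2.42 ± 0.31 and 2.19 ± 0.41. The monocyte chemokines Ccl7 (5.44, 8.22 and 6.83 against 4.86, 4.91 and 4.68) and Ccl2 (4.66, 7.12 and 6.18 against 4.46, 4.44 and 4.45) were highest in culture replicate 2 and lowest in culture replicate 1. The calls of Ccl2 (0.97, limma adjusted p = 0.158), Cxcl10 (1.08, limma adjusted p = 0.0914) and Ccl6 (0.52, limma adjusted p = 0.304) were lost without culture replicate 2, that of Ccl2 also without culture replicate 3 (limma adjusted p = 0.0524) and that of Ccl6 also without in vivo replicate 2 or 3 or culture replicate 3 (limma adjusted p = 0.0679, 0.0854 and 0.062). Cxcl1 read 7.50, 9.03 and 9.22 against 9.07, 5.0 and 8.38, overlapping groups, and Il1b stood at -0.03.

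Interferon-induced genes were higher in 9 of 25 measured cases, of 32, and lower in none, with a median of 0.62. Isg15, a ubiquitin-like modifier, read 6.66, 6.72 and 6.74 in culture and 5.35, 4.64 and 4.94 in vivo, undetected in vivo and at least 2.11-fold higher (limma adjusted p = 0.00132). Gbp2, a guanylate-binding GTPase, stood at 9.03, 9.90 and 9.24 against 7.49, 8.03 and 7.60 (1.68 ± 0.34, limma adjusted p = 0.000524), and Ifit3 at 7.36, 7.82 and 7.65 against 5.54, 6.66 and 6.03 (1.54 ± 0.40, limma adjusted p = 0.00517). A second probe of Ifit3 stood at 0.00. Ifitm3 and Igtp rose by 1.54 ± 0.28 and 1.27 ± 0.33. The count of 9 was 5 without culture replicate 2, 4 with centring on all probes and 2 with the authors' values. Irgm2 (0.77, limma adjusted p = 0.0908), Rsad2 (0.68, limma adjusted p = 0.244), Usp18 (1.02, limma adjusted p = 0.0741) and Stat2 (0.96) were those lost without culture replicate 2, and each of the 4 was also lost in at least 2 of the other fits without 1 array.

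Promoters were searched for 7 short motifs, and sequences are shown for genes that rose and hold an interferon or NF-kB motif. They come from RefSeq on GRCm38.p6 and span 250 bases before to 50 bases after the gene start, on the strand of the gene. The interferon-stimulated response element was searched on both strands as GAAA, any 2 bases, GAAA, and capitals mark each match. In Isg15 (chr4:156200769-156201068, minus strand) 3 overlapping matches run together, Ifit3 (chr19:34583279-34583578, plus strand) has 2, and Gbp2 (chr3:142620413-142620712, plus strand) has 1.
Isg15: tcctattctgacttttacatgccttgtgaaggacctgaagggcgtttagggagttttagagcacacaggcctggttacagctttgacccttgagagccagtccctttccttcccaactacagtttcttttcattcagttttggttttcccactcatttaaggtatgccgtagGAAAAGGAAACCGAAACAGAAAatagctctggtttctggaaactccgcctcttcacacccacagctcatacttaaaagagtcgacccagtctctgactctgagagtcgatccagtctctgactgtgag
Ifit3: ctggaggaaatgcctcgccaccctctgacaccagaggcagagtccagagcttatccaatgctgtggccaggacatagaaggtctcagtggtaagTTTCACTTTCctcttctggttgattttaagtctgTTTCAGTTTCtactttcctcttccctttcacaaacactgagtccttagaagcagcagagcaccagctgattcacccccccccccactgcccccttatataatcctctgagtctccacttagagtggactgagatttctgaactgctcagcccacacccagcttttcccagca
Gbp2: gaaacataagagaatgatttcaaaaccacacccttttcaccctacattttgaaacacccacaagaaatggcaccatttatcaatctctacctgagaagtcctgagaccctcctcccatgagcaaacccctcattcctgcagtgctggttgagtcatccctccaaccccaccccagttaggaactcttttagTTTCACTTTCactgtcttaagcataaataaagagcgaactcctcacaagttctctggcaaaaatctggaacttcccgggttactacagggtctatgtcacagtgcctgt

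The motif was present in 1131 of 32851 promoters in the table (3.44%). That share is over promoters, which belong to 27025 genes, while the counts below are of genes with a match in any promoter. Of the 9 interferon-list genes that rose, 8 had a promoter in the table and all 8 held it (Gbp2, Ifit3, Ifitm3, Igtp, Irgm2, Isg15, Rsad2 and Stat2). Of the 16 measured genes of that list that were not called, 12 had a promoter and 3 held it (Bst2, Gbp3 and Irgm1). Outside that list it lay in the promoters of Saa3, B2m, Cxcl10, Cxcl14 and Piwil4, which rose, and of Sycp1, Tdrd7, Tbpl1, Odf3, Ebp, Ccl19, H2-T23 and Vegfa, which were not called. The match describes these letters in this window and shows no binding.

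The motif of the factor NF-kB, searched in the same way as GGG, any 2 bases, TTTCC, lay in 1.63% of promoters. It was found in Serpina3n (chr12:104406458-104406757, plus strand) and in Ccl9 (chr11:83578587-83578886, minus strand), both among the 15 genes with the largest rise, 11 of which had a promoter in the table. Among cytokine genes with a promoter in the table, it lay in 1 of 4 that rose and in 3 of 12 not called (Csf1, Cxcl1 and Il1rn). It also lay in B2m, Mvd, Syce3 and Sycp1. Capitals mark the match.
Serpina3n: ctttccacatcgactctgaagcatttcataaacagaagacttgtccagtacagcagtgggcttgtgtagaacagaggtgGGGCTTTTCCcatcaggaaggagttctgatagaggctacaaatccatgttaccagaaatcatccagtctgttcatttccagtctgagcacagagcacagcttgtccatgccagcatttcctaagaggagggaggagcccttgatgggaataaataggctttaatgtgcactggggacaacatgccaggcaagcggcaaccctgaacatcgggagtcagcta
Ccl9: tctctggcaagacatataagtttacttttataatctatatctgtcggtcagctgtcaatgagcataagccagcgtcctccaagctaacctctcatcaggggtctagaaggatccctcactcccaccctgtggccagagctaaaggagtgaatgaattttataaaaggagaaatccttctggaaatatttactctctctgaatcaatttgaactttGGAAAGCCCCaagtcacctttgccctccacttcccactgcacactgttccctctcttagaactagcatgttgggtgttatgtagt

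The other 5 searches, also on both strands, found few matches. The sterol response element (TCAC, any base, CCAC, 1.24% of promoters) was in none of the 15 measured cholesterol genes with a promoter in the table. It lay in Saa3, which rose, and in Piwil1, Dnah1 and Ccl19, which were not called. The hypoxia response element (any base, then ACGTGCC, 1.63%) was in 1 of 16 uncalled hypoxia genes, Ankrd37. Among germ cell genes it lay in Pld6, Tdrd9 and Ddx25, which fell, and in Syce3, Sycp1 and Spata16, which were not called. The cAMP response element (TGAC followed by GTCA, 1.79%) lay in Lrguk among the genes that fell in the lists searched, and in Ldha, which was not called. Of the MYB motifs, the first form (CCAAC, any base, GTC, 0.715%) lay in none of the genes that fell in the lists searched. The second (AAC, any base, GTCA, 2.61%) lay in Tdrd5 among them. Mei1 held the first form and Pou5f2 and Ebp the second, and these genes were not called.

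Antigen presentation genes rose in 3 of 17 measured cases, of 19, and fell in none, with a median of 0.51. Psmb8, a subunit of the immunoproteasome, read 8.26, 9.67 and 8.88 in culture and 6.00, 7.00 and 6.04 in vivo (2.59 ± 0.50, limma adjusted p = 0.0004), and B2m, the light chain of class I molecules, rose by 1.69 ± 0.27. Psmb9, at 1.44 ± 0.54, lost its call without any 1 of the 6 arrays (limma adjusted p from 0.0518 to 0.127). Class II genes were not called and lay below 0 or near it, with H2-Ab1 at -0.90, Cd74 at -0.97 and H2-Eb1 at 0.03. Among 9 complement genes measured of 14, C4b (1.43 ± 0.34), C1s1 (1.36 ± 0.49) and Masp1 (1.31 ± 0.30) rose, none fell and the median was 0.79, whereas none was called with centring on all probes. C1s1 lost its call without any array but in vivo replicate 2 (limma adjusted p from 0.065 to 0.18).

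Lists of general cell state differed in their share of calls, which was 11.2% over all genes. None of 20 measured mitotic cell cycle genes, of 28, was called (median -0.18), nor any of 10 immediate early genes, of 11. Within the latter the in vivo arrays differed among themselves: Fos read 7.50, 7.88 and 8.69 in culture and 11.36, 7.11 and 11.26 in vivo. Of 18 hypoxia genes, of 24, Kdm3a, a histone demethylase, fell by 1.02 ± 0.27 and lost its call without in vivo replicate 3 or culture replicate 1 (-0.91 in both), and its 4 probes ran from -1.02 to 0.29. Vegfa, the vascular growth factor, stood at -0.49 and the glucose transporter Slc2a1 at 0.03, neither called.

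Of 16 genes of the oxidative stress response driven by NRF2, of 19, Srxn1, which repairs peroxiredoxins, rose by 2.30 ± 0.53 and Me1, malic enzyme, fell by 1.10 ± 0.24, the latter at -0.92 without in vivo replicate 3. The p53 targets Phlda3, Gadd45a and Bbc3 rose by 1.38 ± 0.31, 1.07 ± 0.20 and 1.01 ± 0.29, 3 of 14 measured of 18. That count was 1 without in vivo replicate 3 and 0 with centring on all probes, which also turned the list's median of 0.19 to -0.22. The second probes of Phlda3, Gadd45a and Bbc3 stood at 0.11, 0.20 and 0.13. Cdkn1a, the cell cycle inhibitor of the p53 response, stood at 0.46 and was not called. Of 36 oxidative phosphorylation genes, of 41, Uqcrfs1 and Sdhd fell and none rose (median -0.19). Uqcrfs1, the iron-sulfur subunit of complex III, was undetected in culture and at least 1.04-fold lower, and Sdhd, at -1.06, lost its call without in vivo replicate 1 or 3 or culture replicate 3 (from -0.98 to -0.85). Of 18 lysosome genes, of 21, Cd63 and Gusb rose by 1.56 ± 0.18 and 1.43 ± 0.20.

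The culture effect at 14.5 dpp was then set against its mean at the ages sampled just before and after, culture day 6 against 13.5 dpp and culture day 9 against 16.5 dpp. These comparisons share no arrays with the 6 used here. The test of the difference called 560 genes (4.47%), 259 (2.07%) higher and 301 (2.4%) lower, of which 205 were also among the 1406. None of the 30 genes with the largest differences was called in it: Gpnmb differed from its neighbours by 0.10 ± 0.70, Tnc by -0.15 ± 0.42, F13a1 by -0.68 ± 0.32 and Hba-a1 by 0.05 ± 0.91. Pabpc2 differed by -3.83 ± 1.44 (limma adjusted p = 0.0955) and Adam5 by -3.62 ± 1.47 (limma adjusted p = 0.126), and a p that misses the threshold does not show that the ages are alike. List members called both at 14.5 dpp and in this test were Msh4 (-1.60), Exd1 (-1.08), Lrat (-2.56), Ccn2 (-1.44) and Uqcrfs1 (-1.31), lower than at the neighbouring ages, and Piwil4 (1.37), Amh (2.52), Tsx (1.54), Col6a2 (1.39), Col3a1 (1.40) and Tgfb1 (1.34), higher.

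The 2 sides of the comparison were also set against their own neighbours. Culture day 7 differed from the mean of culture days 6 and 9 in 362 genes (2.89%), 157 (1.25%) higher and 205 (1.64%) lower, of which 99 were also called against in vivo 14.5 dpp. In vivo 14.5 dpp differed from the mean of 13.5 and 16.5 dpp in 94 genes (0.751%), 83 (0.663%) higher and 11 (0.0879%) lower, of which 45 were also called. This count was 61 without in vivo 14.5 dpp replicate 3 and 54 without 3 neighbouring arrays that stood apart in spermatocyte genes, left out after the data were seen. The difference with 13.5 dpp rests on 2 arrays of that age.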

How the data were processed

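Signal intensity and a detection p-value for every probe were read from the authors' deposited table of 45281 probes, per the file headers. The authors' deposited log2 values, whose processing used lumi (version not given) per the submitters' processing notes, served as an alternative. Per the labels' protocols, RNA was extracted with Trizol, cleaned and treated with DNase, amplified and labelled with biotin. Of 39 arrays 38 were used. The 2 columns headed by an array code that matched no label were not used, which left 2 arrays at 13.5 dpp.

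Intensities were background-corrected (normexp fitted from the detection p-values, offset 16), quantile-normalized and log2-transformed with limma 3.58.1 in R 4.3.3. The 23665 probes with a detection p below 0.01 on at least 3 arrays were kept, and where a gene had several the one with the highest mean over all arrays stood for it, giving 12518 genes, of which 4961 had more than 1 kept probe. In all, 34885 probes had 1 gene symbol, 18 several and 10378 none. A mean per group was fitted over 13 groups (25 residual degrees of freedom) with a trended empirical Bayes variance, and p-values were adjusted by the Benjamini-Hochberg method. The procedure was tested on simulated data.

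The 43 gene lists (859 symbols, 634 measured) and the comparison itself were chosen with earlier results of these data known. The genes named are the 15 with the largest called difference in each direction whose groups do not overlap, members of the lists, and the 5 in each direction that differed most from the neighbouring ages. Promoters came from a RefSeq table. Same-numbered samples of the 2 groups had deviations that correlated at -0.02, -0.03 and 0.13, so the numbers were not taken as pairs. Alternatives covered scaling, background correction, probe filter, probe choice, the arrays fitted, array weights, the fold threshold and leaving out each array.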

Additional observations from a re-analysis of the deposited data

Results flagged for a closer look

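The difference between culture and in vivo at 14.5 dpp departed from its mean at the neighbouring ages in 560 genes, by a test of that difference. The 5 largest departures in each direction follow, with levels as group means and the limma adjusted p of the difference.

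Amh, the anti-Müllerian hormone, departed by 2.52 ± 0.61 (limma adjusted p = 0.00897). It stood at 8.82 at culture day 7, against 7.11 and 6.53 at days 6 and 9, while in vivo it was 8.40, 7.48 and 7.60 at 13.5, 14.5 and 16.5 dpp. Klf10, a transcription factor induced by TGF-beta, departed by 2.19 ± 0.18 (limma adjusted p = 2.16e-09). It read 6.44, 6.70 and 6.40 on the cultured arrays and was 4.72 and 4.66 at culture days 6 and 9. Sox3, a transcription factor of spermatogonia, departed by 2.12 ± 0.40 (limma adjusted p = 0.000827) and Il17ra, a cytokine receptor, by 2.12 ± 0.34 (limma adjusted p = 0.000173). Zcchc18 departed by 2.36 ± 0.67 (limma adjusted p = 0.0242), was not called at 14.5 dpp itself (-0.45), and lost its call without in vivo replicate 3 or culture replicate 1 or 3.

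Fam181b departed by -4.40 ± 0.98 (limma adjusted p = 0.00433). It stood at 4.81 at culture day 7, against 8.79 and 9.04 at days 6 and 9, and in vivo replicate 3 at 14.5 dpp read 8.10 beside 4.75 and 4.68. Bmp2k, a kinase induced by bone morphogenetic protein, departed by -3.26 ± 0.82 (limma adjusted p = 0.0113) and stood at 4.47 at culture day 7, against 7.19 and 7.26 at days 6 and 9. Cep295, a centriole protein, departed by -3.25 ± 0.28 (limma adjusted p = 1.07e-08), with 7.28 at culture day 7 and 9.36 at 14.5 dpp in vivo, against 6.97 and 8.17 at 13.5 and 16.5 dpp. Tbc1d10c departed by -3.30 ± 0.72 (limma adjusted p = 0.00379) and the acetyltransferase gene Crebbp by -3.22 ± 0.32 (limma adjusted p = 1.48e-07). At 14.5 dpp the probes used for these 2 genes fell by 2.43 and 2.15, and another probe of each stood at 0.25 and 0.83. The 3 probes of Bmp2k ran from -2.86 to -0.16, and the 2 of Cep295 stood at -2.09 and -0.20. Some of these levels were shared by culture day 14, which stood nearer to day 7 for Fam181b (4.89), Tbc1d10c (5.15 beside 5.07) and Bmp2k (5.01). The same held for Zcchc18 (9.48 beside 9.39) and Amh (8.01). Day 14 stood nearer to day 6 or 9 for Klf10 (4.81), Sox3 (5.71), Il17ra (6.43), Cep295 (8.78) and Crebbp (6.85). Why days 7 and 14 were alike in some genes was not tested.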

How the results depend on the processing

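The number of genes called at 14.5 dpp, 1406, was 413 with the authors' values (178 higher and 235 lower; 399 of them shared), 919 with an offset of 50 (435 higher), 806 with no background correction (376 higher and 430 lower) and 3671 with no fold threshold (1856 higher and 1815 lower). Centring on the median of all probes gave 245 higher and 1503 lower, a share of 14% higher and a median of all genes of -0.27. That median was 0.08 with centring on probes detected on every array, 0.03 with probes detected on 3 of the 6 arrays, and -0.01 both without a filter and with the mean of a gene's probes. The 560 genes that departed from the neighbouring ages became 360 with centring on all probes, 137 with the authors' values, 320 with no background correction, 1112 with array weights and 995 with no fold threshold. The 362 genes that set culture day 7 apart from days 6 and 9 became 665, 46, 162 (offset 50), 122 (no background correction) and 2007 (no fold threshold). The 94 that set 14.5 dpp apart in vivo became 14 with the authors' values, 52, 46, 297 with no fold threshold, 236 with array weights and 54 without 3 neighbouring arrays, an alternative chosen after seeing the data. Leaving out each of the 6 arrays gave 1117 to 1469 genes called, 595 to 760 higher and 514 to 709 lower, a share of 48.7% to 54.1% higher, a median of 0 to 0.01, and 434 to 554, 276 to 415 and 61 to 95 genes for the 3 other tests. The direction of Tbc1d10c turned to 0.25 with the brightest probe over the 6 arrays, and that of Col3a1 to -0.10 with the mean of its probes; their probes differ in direction. With the replicate number as a block, fitted on the 6 arrays alone, 1491 genes were called (701 higher and 790 lower), against 1483 without the block, and the numbers share no more than a label. Of 187 named genes, 146 kept their call with centring on all probes, 166 with centring on detected probes and 97 with the authors' values. Calls near background are limited by signal: 135 higher and 204 lower genes were undetected throughout the other group. The cause of these shifts was not tested.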

Other observations

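Genes of retinoic acid supply and receptors, with 1 call at 14.5 dpp itself, gave several calls in the test against the neighbouring ages. The culture effect was higher at 14.5 dpp than at those ages for the receptor genes Rara (1.34, limma adjusted p = 0.0107) and Rarg (1.52, limma adjusted p = 0.00595), for Cyp26b1, which breaks down retinoic acid (1.46, limma adjusted p = 0.0145), and for Aldh1a1, which makes it (1.20, limma adjusted p = 0.00662). It was lower for Lrat (-2.56, limma adjusted p = 0.00237). These members are among 15 measured of the list, and 4.47% of all genes were called in that test.

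Other list members departed from the neighbouring ages without being called at 14.5 dpp. The urokinase gene Plau departed by -2.41 (limma adjusted p = 2.89e-05), the imprinted genes Peg3 and Rian by -2.03 and -1.60, the chemokines Ccl4 and Ccl3 by -1.86 and -1.50, and Kitl, the ligand of Kit, by -1.60 (limma adjusted p = 0.00682).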
